A study of Mus musculus with 71 samples.

Results

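The genes described here are the ligands IL-15 and IL-7, the receptor chains that bind them and the kinase and transcription factor that act below those chains. They were chosen by name and not by a rule on measured values, though earlier results of these data were known. They are 9 of the 24475 gene identifiers of the series, namely Il15, Il7, Il15ra, Il2rb, Il2rg, Il7r, Il2ra, Jak3 and Stat5b. All 9 were present in the 3 bulk tables and in the single-cell tables. The question is which intestinal fraction holds transcripts of ligand and which holds those of receptor, and whether this differs between segments or with loss of Btnl2.

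Il15 encodes a cytokine that reaches lymphocytes mainly on the surface of the cell that makes it, held there by IL-15Rα (Il15ra), and is then bound by IL-2Rβ (Il2rb) and the common γ chain (Il2rg) on the lymphocyte. Il7 encodes a cytokine of epithelial and stromal cells that binds IL-7Rα (Il7r) paired with the same common γ chain. Il2ra encodes the chain that raises affinity for IL-2 and marks activated T cells, and it is not part of the IL-15 or IL-7 receptor. Jak3 is the kinase bound to the common γ chain, and Stat5b is one of the transcription factors phosphorylated below it. In the gut, IL-15 is known for maintaining intraepithelial lymphocytes (IELs) and IL-7 for the development of γδ T cells.

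The study compared mice homozygous for a Btnl2 null allele made by inserting LacZ (Btnl2-KO; Btnl2-/- in the labels) with WT mice, all C57BL/6, untreated, and described in the methods as female cohoused littermates. Epithelial cells (IECs) were the top layer of a density gradient, from mice labelled 7 weeks old, with 2 Btnl2-KO and 3 WT libraries from duodenum, 3 and 3 from jejunum, and 3 and 2 from ileum. γδ IELs were sorted as CD45+ TCRβ- TCRγδ+ cells from mice labelled 10 weeks old, each bulk library from a pool of mice, with 3 Btnl2-KO and 4 WT libraries from duodenum, 4 and 4 from jejunum, and 3 and 4 from ileum. Whole tissue came from mice labelled only as young, with 7 and 7 libraries of small intestine and 7 and 6 of colon. One single-cell library of γδ IELs was made for each of the 3 segments and each genotype, labelled 8 to 10 weeks old. The allele was deleted in every cell, so differences cannot be assigned to one cell type. Total counts ran from 13444964 to 38258478 per bulk library, and values below are in CPM, counts relative to the library total, scaled by TMM within a table.

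Several libraries stood apart. Btnl2 lay at 25.1 to 65.8 CPM in WT IECs and at 0.339 to 0.596 CPM in 6 of the 8 Btnl2-KO IEC libraries, but at 5.48 CPM in duodenal library 1003459 and 18.8 CPM in jejunal library 1003474, which are labelled Btnl2-KO. Library 1003459 also held 112 CPM of 5 proximal small intestinal genes, against 882 to 1842 in WT duodenum, and 445 CPM of 5 ileal genes, against 91.0 to 151. Library 1003474 held 720.5 CPM of those ileal genes, against 106 to 198 in WT jejunum. Library 1003481, labelled Btnl2-KO ileum, held 598 CPM of the proximal genes, against 41.8 to 63.8 in WT ileum, and 49.2 CPM of the ileal genes, against 906 to 938. The segment and genotype of these 3 libraries are given as labelled. In γδ IELs, Btnl2 lay at 2.47 to 9.79 CPM in WT and at most 0.124 CPM in Btnl2-KO libraries. The summed level of 12 pan-epithelial markers in γδ IEL libraries was 5.25 to 78.7% of the IEC median, and the summed level of 12 T cell markers in IEC libraries was 0.0448 to 0.992% of the γδ IEL median. The γδ T cell receptor constant genes are not among these 12 T cell markers, and of the 6 αβ T cell markers only Cd4, Cd5 and Cd8b1 could be used, at 17.6 to 69.6 CPM summed in γδ IELs.

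The sequence just upstream of a start site of 4 of the genes is shown, because Il2rg, Jak3 and Stat5b passed the test in WT jejunal against duodenal γδ IELs and Il7r did not. Each line holds the 250 bases before a RefSeq start site in GRCm38.p6, 5′ to 3′ on the gene's strand. Stat5b had 2 such sites, and the window shown lies inside the bounds of the gene (chr11:100780731-100859004). The Il7r window partly overlaps that gene, which ends at 9529941. Capitals mark matches on either strand to TTCNNNGAA (a STAT site) or TGTGGT (a RUNX site). The interferon-stimulated response element (ISRE) and CCGGAAGT (an ETS site) were also searched.
Il7r, chr15:9529877-9530126, minus strand: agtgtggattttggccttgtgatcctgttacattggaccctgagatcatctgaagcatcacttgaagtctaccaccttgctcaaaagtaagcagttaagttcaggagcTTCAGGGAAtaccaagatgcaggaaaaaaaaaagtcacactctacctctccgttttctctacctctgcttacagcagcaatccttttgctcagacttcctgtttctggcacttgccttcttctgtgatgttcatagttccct
Il2rg, chrX:101268256-101268505, minus strand: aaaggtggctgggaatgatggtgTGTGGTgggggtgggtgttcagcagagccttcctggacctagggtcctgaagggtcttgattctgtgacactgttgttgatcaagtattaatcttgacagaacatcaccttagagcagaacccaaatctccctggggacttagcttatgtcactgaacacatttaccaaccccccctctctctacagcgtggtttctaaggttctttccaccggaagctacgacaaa
Jak3, chr8:71676133-71676382, plus strand: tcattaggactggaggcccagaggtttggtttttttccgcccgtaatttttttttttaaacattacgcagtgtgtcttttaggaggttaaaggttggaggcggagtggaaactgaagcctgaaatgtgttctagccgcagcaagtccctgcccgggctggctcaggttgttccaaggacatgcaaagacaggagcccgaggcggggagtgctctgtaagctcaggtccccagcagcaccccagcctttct
Stat5b, chr11:100850582-100850831, minus strand: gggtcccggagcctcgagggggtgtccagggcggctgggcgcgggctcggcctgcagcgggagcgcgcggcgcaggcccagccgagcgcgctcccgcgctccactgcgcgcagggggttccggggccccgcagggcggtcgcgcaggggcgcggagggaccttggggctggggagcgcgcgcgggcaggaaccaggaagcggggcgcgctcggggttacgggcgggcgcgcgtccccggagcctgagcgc
The Il7r window held 1 STAT match, 142 bases before the start, and the Il2rg window 1 RUNX match, 227 bases before it. Such matches occurred in 7.02% and 14% of all 32851 windows of this length, and ISRE and ETS matches in 2.98% and 2.88%. No match was found in the windows of Jak3, Stat5b, Il2ra or Il15ra, which says only that these letters are not there. Sequence was at hand for 6 of the 9 genes.

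Receptor transcripts were higher in the γδ IEL libraries than in the IEC libraries. For Il15ra, Il2rb, Il2rg, Il7r, Il2ra, Jak3 and Stat5b, all 22 γδ IEL libraries lay above the highest of the 16 IEC libraries. The same held for 5 of 7 other JAK and STAT genes and 9 of 15 target genes of STAT5, IL-15 or IL-7. It held for 5 of 8 regulators of Il15, 4 of 10 interferon-induced genes and 2 of 5 other receptor chains. The share over all genes was not counted, so these counts are not read as a result about the 9 members or these lists. IECs and γδ IELs were counted in separate tables, from mice of different age and preparation, so fraction and table cannot be told apart and no test was made.

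**Figure D1:**
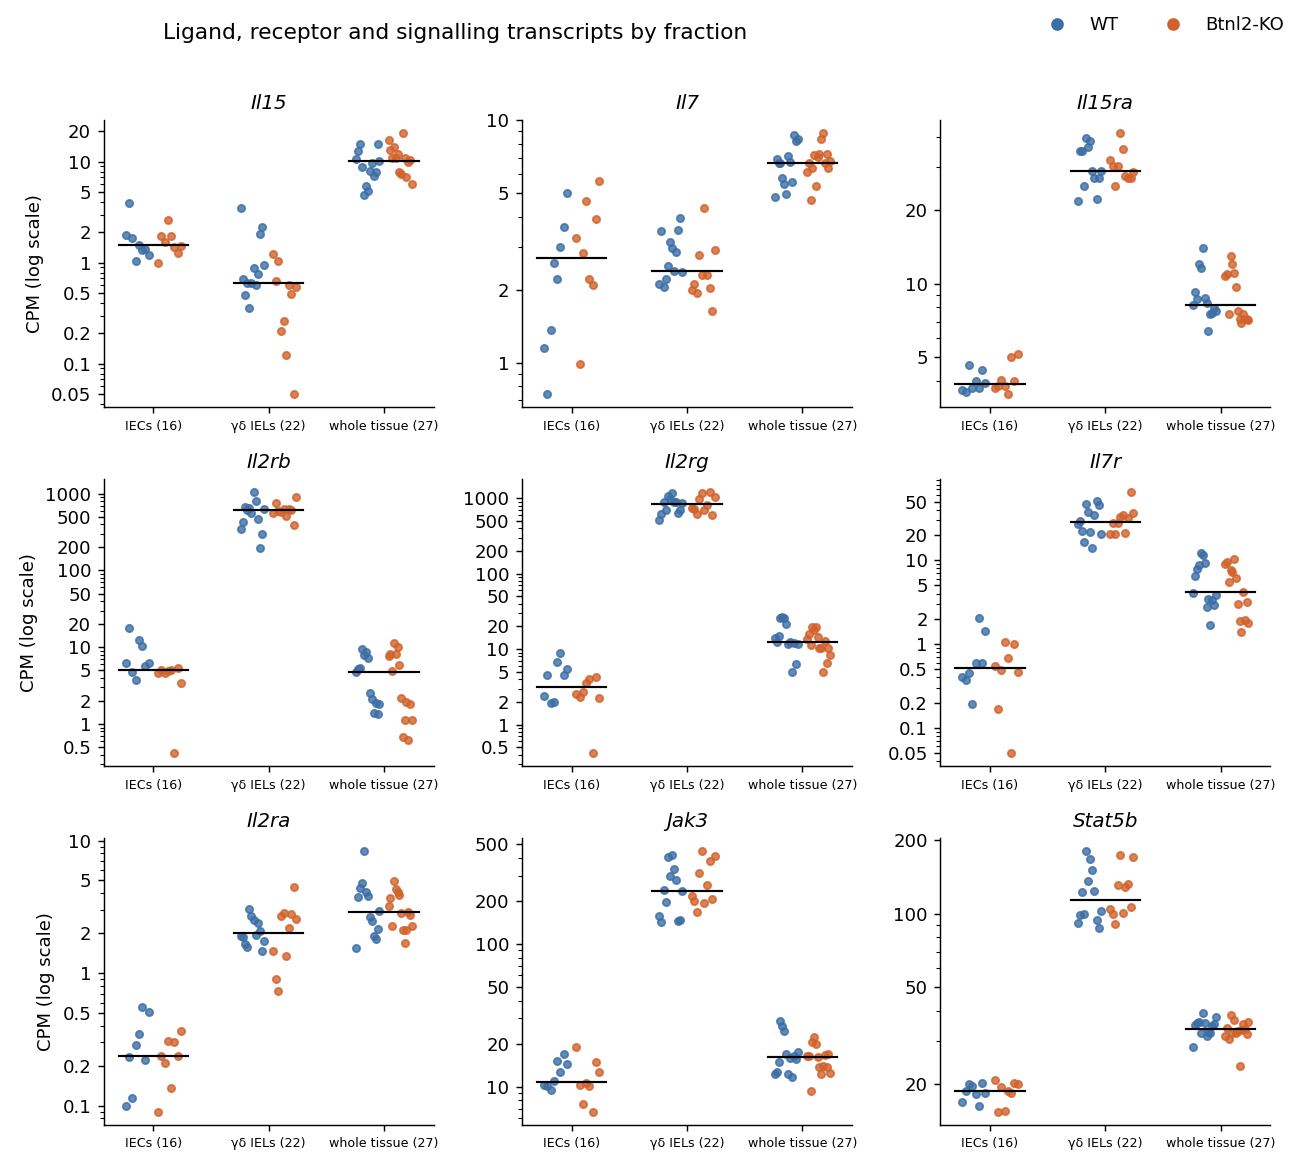
Each panel plots one gene in CPM on a log axis for the 16 IEC, 22 γδ IEL and 27 whole-tissue libraries, with WT in blue, Btnl2-KO in orange and the median as a line; a value of 0 is drawn at 0.05. The receptor and signalling genes are highest in γδ IELs except Il2ra, and Il15 is highest in whole tissue.

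Il2rg, the shared chain, ranged from 518 to 1217 CPM in γδ IELs (median 843) and from 0.419 to 8.90 CPM in IECs (median 3.16), a ratio of medians of 267. Il2rb, the signalling chain that IL-15 shares with IL-2, ranged from 194 to 1054 CPM (median 611) against 0.419 to 17.8 CPM (median 5.02), a ratio of 122. In IECs, Il2rg stood at 0.0498 to 1.06% of the γδ IEL median, above the share of T cell transcripts in 6 of 16 libraries. Il2rb stood at 0.0686 to 2.91%, above that share in all 16. The IEC library with the least T cell signal, ileal Btnl2-KO library 1003481 at 0.0448%, also had the least Il2rb and Il2rg.

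Il7r ranged from 13.9 to 65.3 CPM in γδ IELs (median 28.4) and from 0 to 2.05 CPM in IECs (median 0.515), a ratio of 55.1. Il15ra, which presents or binds IL-15, ranged from 21.8 to 41.5 CPM (median 28.9) against 3.53 to 5.16 CPM (median 3.87), a ratio of 7.46. In IECs, Il15ra stood at 12.2 to 17.9% of the γδ IEL median in every library, above the T cell share in all 16. Il2ra was low in both, at 0.732 to 4.44 CPM in γδ IELs and 0.0898 to 0.553 CPM in IECs, where only 4 of 16 libraries reached 10 counts.

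The kinase and the transcription factor were present in both fractions. Jak3 ranged from 143 to 450 CPM in γδ IELs and from 6.65 to 18.9 CPM in IECs, a ratio of medians of 22.04. Stat5b ranged from 87.2 to 182 CPM in γδ IELs and from 15.4 to 20.7 CPM in IECs, a ratio of 6.10. In IECs, Jak3 was at 2.81 to 8.00% and Stat5b at 13.5 to 18.1% of the γδ IEL median, above the T cell share in all 16 libraries.

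The ligands did not follow this order. Il15 ranged from 0.988 to 3.89 CPM in IECs (median 1.497) and from 0 to 3.46 CPM in γδ IELs (median 0.630), so that the fractions overlapped. Il7 ranged from 0.741 to 5.60 CPM in IECs (median 2.70) and from 1.63 to 4.34 CPM in γδ IELs (median 2.38), and also overlapped. Against the IEC median, γδ IEL libraries held 0 to 231% of Il15 and 60.1 to 161% of Il7, beside 5.25 to 78.7% of the pan-epithelial markers. Il7 exceeded the epithelial share in all 22 γδ IEL libraries and Il15 in 16 of them. The part of epithelial RNA in these values was not tested.

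In small intestinal tissue the medians of both ligands were above those of either purified fraction. Il15 ranged from 4.66 to 16.3 CPM in the 14 small intestinal libraries, all above the highest γδ IEL and the highest IEC library, with a median 7.27 times that of IECs. Il7 ranged from 4.69 to 7.16 CPM there, all above the γδ IEL libraries, and 9 of 14 lay above all IEC libraries. The same tissue held 255 to 649 CPM of 8 myeloid markers and 1041 to 2556 CPM of 7 stromal markers, against 21.4 to 108 CPM and 0.150 to 6.99 CPM in IECs. Their part in the ligand values was not tested. In bulk tissue, fewer cells of a type and less RNA per cell cannot be told apart.

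Per kilobase of exon, the median levels in γδ IELs fell in the order Il2rg (353 CPM per kb), Il2rb (143), Jak3 (44.2), Stat5b (20.7), Il15ra (6.50), Il7r (6.09), Il7 (0.420), Il2ra (0.354) and Il15 (0.279). Ranges of neighbours in this order overlapped at every step except between Stat5b, whose lowest library was at 15.7 CPM per kb, and Il15ra, whose highest was at 9.32, and between Il7r, at least 2.99, and Il7, at most 0.767. In whole tissue, Il15 (median 4.53 CPM per kb, range 2.06 to 8.51) lay above Il7 (median 1.18, range 0.829 to 1.56) without overlap. In IECs the 2 ligands overlapped, at 0.437 to 1.72 CPM per kb for Il15 and 0.131 to 0.988 for Il7.

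In the single-cell libraries, after filtering, 23569 of 23994 barcodes were kept, with library totals of 19043347 to 27933823 UMIs, and pairs of libraries shared 19 to 31 barcodes. UMIs of Btnl2 were found in the WT libraries only (1 to 3 each) and UMIs of the inserted LacZ in the Btnl2-KO libraries only (8 to 21 each). Levels are in CPM of all UMIs, and 95% intervals, exact Poisson for levels and Clopper-Pearson for shares of cells, cover counting error only. Pan-epithelial markers summed to 198 to 527 CPM.

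Il15 gave 14 UMIs in all 23569 cells, 0.108 CPM (0.0588 to 0.180), with 1 to 3 UMIs in each library. Of these, 6 lay in the 144 cells of a cluster led by Paneth cell α-defensin genes and 8 in all other cells. Among all deposited barcodes its median level over the 6 libraries was 0.239 CPM, and among cells without a pan-epithelial UMI it was 0. Il7 gave 276 UMIs, 2.12 CPM (1.88 to 2.38), of which 273 lay outside that cluster. Cells without a pan-epithelial UMI held it at 1.25 to 2.97 CPM in the 6 libraries.

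Receptor chains were abundant in the same cells. Il2rb lay between 438 and 541 CPM in the 6 libraries and Il2rg between 453 and 519. Jak3 lay between 143 and 167, Stat5b between 49.8 and 53.3, and Il15ra between 21.0 and 23.0. Il2ra was at 1.47 to 3.26 CPM. With 1 library per segment and genotype, none of these differences can be tested.

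Along the small intestine, Il7 in IECs rose toward the ileum. In WT IECs, Il7 was at 0.741, 1.15 and 1.36 CPM in duodenum, at 2.21, 2.57 and 2.98 CPM in jejunum, and at 3.62 and 5.03 CPM in ileum, so that the 3 segments did not overlap. WT ileum was 3.93-fold above WT duodenum (log2 1.98 ± 0.35 SE, edgeR quasi-likelihood test, Benjamini-Hochberg adjusted p = 0.0277). Il7 was the only member past both thresholds (adjusted p below 0.05 and fold above 1.5), 1 of 8 tested, where 4.42% of all tested genes passed. The call was lost without any one of 4 libraries, at adjusted p = 0.112 without duodenal library 1003465, 0.0511 without 1003468, 0.134 without ileal library 1003488 and 0.211 without 1003491, with log2 changes of 1.73 to 2.2. Leaving out 1 of the 2 ileal libraries leaves a lone one, taken to vary like the duodenal ones. With all IEC libraries in 1 fit, no gene at all passed and Il7 stood at 1.99 (adjusted p = 0.155).

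Jejunum was 2.37-fold above duodenum (log2 1.25 ± 0.32, adjusted p = 0.203) and ileum 1.67-fold above jejunum (0.74 ± 0.28, adjusted p = 0.465). No member passed in either comparison, where 0.32% and 1.13% of genes did. The segments themselves were marked, as 4 of 5 tested proximal markers fell and 4 of 5 ileal markers rose in WT ileum against duodenum.

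Markers of some other cells moved with Il7 in WT IECs. Myeloid markers summed to 28.6 to 32.8 CPM in duodenum, 53.3 to 56.2 in jejunum and 92.4 to 103 in ileum. Stromal markers, cells known to make IL-7, summed to 0.150 to 0.340, 0.190 to 0.940 and 1.82 to 6.99 CPM, each of the 7 with a median under 10 counts in IECs. Innate lymphoid markers summed to 31.5 to 35.3, 43.0 to 47.4 and 55.0 to 61.5 CPM. Endothelial markers also rose by their median (4.24, 5.80 and 9.09 CPM summed). B cell and plasma cell markers did not (medians 6.13, 4.71 and 5.32), and the 12 T cell markers were highest in jejunum (86.4, 179 and 141.5). In ileum against duodenum, 1 of 6 tested myeloid markers (Itgam, log2 2.04), 2 of 3 stromal (Dcn, 6.32, and Col3a1, 3.37), 1 of 3 innate lymphoid (Kit, 1.26) and the T cell gene Cd4 (2.73) were called, all higher. Their part in the Il7 difference was not tested.

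**Figure D2:**
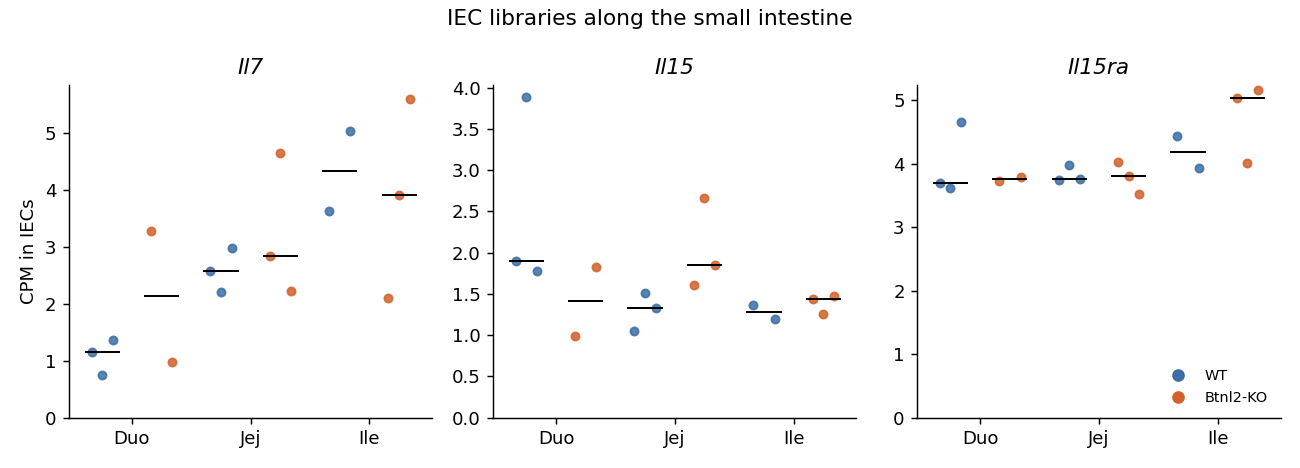
CPM of Il7, Il15 and Il15ra in each IEC library of duodenum (Duo), jejunum (Jej) and ileum (Ile), with WT in blue, Btnl2-KO in orange and group medians as lines. Il7 is lowest in WT duodenum (0.741 to 1.36 CPM) and highest in ileum; the high duodenal Btnl2-KO point is library 1003459.

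In Btnl2-KO IECs, Il7 was at 0.983 and 3.28 CPM in duodenum, 2.22, 2.84 and 4.65 CPM in jejunum, and 2.10, 3.91 and 5.60 CPM in ileum. The 3.28 CPM belonged to library 1003459, the 4.65 CPM to 1003474 and the 2.10 CPM to 1003481, the 3 whose segment genes or Btnl2 went against their labels. With both genotypes and genotype as a term, ileum was above duodenum by 1.42 on the log2 scale (adjusted p = 0.33), without 1003459 and 1003474 by 1.98 (adjusted p = 0.0246), and without all 3 by 2.09 (adjusted p = 0.000892). Jejunum against duodenum was at 0.95 with all libraries (adjusted p = 0.288) and at 1.28 without the 3 (adjusted p = 0.0184). Ileum against jejunum was at 0.815 without the 3 (adjusted p = 0.0195). Without the 3, Il7r was also called, higher in ileum than duodenum by 1.5 (adjusted p = 0.0434). In ileum by genotype, no member passed without 1003481.

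Il15 in IECs was not above the other segments in the ileum. WT duodenum held 1.78, 1.89 and 3.89 CPM, jejunum 1.05, 1.33 and 1.52 CPM, and ileum 1.202 and 1.37 CPM, so that every duodenal library lay above every other WT library. The change from duodenum to jejunum (log2 -0.95 ± 0.38) had an unadjusted p of 0.0377 in edgeR and an adjusted p of 0.417. Il15ra stayed between 3.61 and 4.65 CPM in all 8 WT IEC libraries.

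In WT γδ IEL libraries, Jak3 and Stat5b were highest in jejunum, which the Btnl2-KO libraries and the single cells did not show. Jak3 was at 143, 157, 196 and 237 CPM in WT duodenum, 299, 337, 409 and 418 CPM in jejunum, and 145, 146, 236 and 282 CPM in ileum, with every jejunal library above all others. Stat5b was at 91.4, 98.5, 99.4 and 122 CPM, then 136, 151, 168 and 182 CPM, then 87.2, 94.0, 102 and 124 CPM, again without overlap of jejunum with either neighbour. Il2rg was at 518, 628, 702 and 887 CPM in duodenum and 897, 981, 1089 and 1180 CPM in jejunum, and at 632 to 883 CPM in ileum.

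Against WT duodenum, 3 of 9 members passed in WT jejunum, all higher, where 23.3% of all tested genes passed, so the count is near the share over all genes and is not a result about these 9. These were Jak3 (1.99-fold, log2 0.99 ± 0.18, adjusted p = 0.00456), Stat5b (1.54-fold, 0.62 ± 0.13, adjusted p = 0.00634) and Il2rg (1.51-fold, 0.60 ± 0.17, adjusted p = 0.0228). The median log2 change was 0.54 over the 9 members and 0.01 over all tested genes. Stat5b and Il2rg lay near the fold threshold, and with the pan-epithelial markers as a covariate they stood at 0.53 and 0.51 on the log2 scale, under it, with adjusted p of 0.00803 and 0.0289, leaving Jak3 as the 1 call. Without duodenal library 1105579 or jejunal library 1105595, Jak3 was again the 1 call, and the Il2rg call was also lost without duodenal library 1105580 (adjusted p = 0.0614) or jejunal library 1105597 (0.0638).

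In WT ileum against WT jejunum, 3 of 9 passed, all lower, where 21.7% of genes passed, again near the share over all genes. Stat5b fell 1.56-fold (log2 -0.64 ± 0.14, adjusted p = 0.00786), Jak3 1.8-fold (-0.85 ± 0.23, adjusted p = 0.0178) and Il2rb 1.95-fold (-0.96 ± 0.33, adjusted p = 0.0476). Il2rb was at 557, 656, 811 and 1054 CPM in jejunum and 194, 300, 461 and 628 CPM in ileum, where the groups overlapped. Pan-epithelial markers moved with this comparison, at 2032 to 5592 CPM summed in WT jejunum and 3469 to 9070 CPM in WT ileum, while T cell markers were at 22480 to 28130 and 22650 to 33460 CPM. With the pan-epithelial covariate no member passed both thresholds, and Jak3 (log2 -0.47, adjusted p = 0.036) and Stat5b (-0.40, adjusted p = 0.0225) passed only the first. Without ileal library 1105589 or jejunal library 1105595 no member passed, and the Il2rb call was lost without any of 6 of the 8 libraries, at adjusted p from 0.0502 to 0.128. Those 6 were 1105587, 1105588, 1105589, 1105595, 1105597 and 1105598.

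Markers of some other cells moved the same way. Innate lymphoid markers summed to a median of 118 CPM in WT duodenum, 209.8 in jejunum and 112 in ileum, and the lowest jejunal library, at 199.7, lay above the highest of both neighbours, at 152.5. Myeloid markers summed to 84.2 to 134.9, 135.0 to 218 and 81.2 to 149 CPM. Kit (log2 1.33 and -1.22) and Itgax (0.90 and -0.78) were called in both steps, and Itgam (0.69) in the first. They made up 1 of 3 tested innate lymphoid and 2 of 4 tested myeloid markers in the first step, and 1 of 3 and 1 of 3 in the second. Kit is also a leading gene of the single-cell cluster led by Batf3. Endothelial markers were also highest in WT jejunum by their median (8.35, 14.1 and 8.34 CPM summed in duodenum, jejunum and ileum). B cell and plasma cell markers (medians 124, 125.5 and 118) and stromal markers (0.341, 0.305 and 0.419) were not marked by such a peak. The αβ T cell markers were highest in ileum (34.7, 42.8 and 52.3). The part of other cells in the jejunal levels was not tested.

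**Figure D3:**
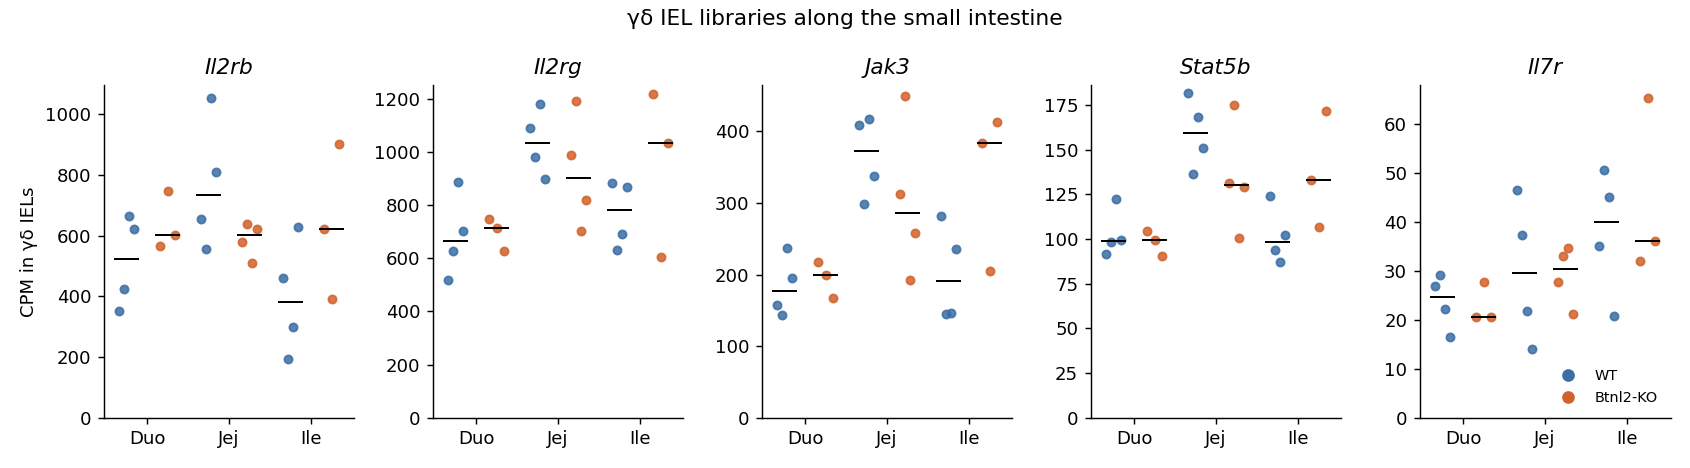
CPM of Il2rb, Il2rg, Jak3, Stat5b and Il7r in each γδ IEL library of duodenum (Duo), jejunum (Jej) and ileum (Ile), with WT in blue, Btnl2-KO in orange and group medians as lines. The 4 WT jejunal libraries are the highest WT libraries for Jak3 (299 to 418 CPM) and Stat5b (136 to 182 CPM), while the Btnl2-KO jejunal libraries overlap the other segments.

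In Btnl2-KO libraries the segments overlapped, with Jak3 at 167, 199.8 and 218 CPM in duodenum, 192, 258, 313 and 450 CPM in jejunum, and 205, 383 and 412 CPM in ileum. Pooling both genotypes with genotype as a term, Jak3 was again called in jejunum against duodenum (log2 0.83, adjusted p = 0.00494), while Stat5b (0.54, adjusted p = 0.00497) and Il2rg (0.51, adjusted p = 0.0136) were under the fold threshold. Il15 (-1.33, adjusted p = 0.0438) and Il2ra (0.80, adjusted p = 0.0214) were called in their place. In that fit no member passed in ileum against jejunum (Jak3 log2 -0.40, adjusted p = 0.321). The difference between genotypes was tested as an interaction and no member passed, at adjusted p of 0.552 for Jak3 and Stat5b (unadjusted p = 0.0629 and 0.0373 in edgeR). In the single cells of WT mice, Jak3 was at 146, 160.0 and 164.5 CPM in duodenum, jejunum and ileum and Stat5b at 52.5, 51.7 and 49.8, neither highest in jejunum. These single cells were, by the study's methods, pooled aliquots of the same sorts.

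Il7r in γδ IELs was highest in the ileum by its median and did not pass. WT duodenum held 16.5, 22.3, 26.9 and 29.1 CPM, jejunum 13.9, 21.8, 37.3 and 46.4 CPM, and ileum 20.7, 34.9, 45.0 and 50.6 CPM, so that all groups overlapped. Ileum against duodenum was 1.6-fold (log2 0.67 ± 0.26, edgeR unadjusted p = 0.0264, adjusted p = 0.361). No member passed in this comparison, where 2.16% of genes did. In single cells the same order held in both genotypes, with 28.8, 29.4 and 45.5 CPM in WT duodenum, jejunum and ileum and 22.8, 32.0 and 44.2 in Btnl2-KO. The 95% intervals of both ileal libraries (42.6 to 48.5 and 41.8 to 46.7) lay above those of the 4 others, whose highest bound was 34.5. They cover counting error only and take UMIs as independent, though 4479 Il7r UMIs lay in 2589 cells. With 1 library per segment and genotype, the spread between mice is not measured.

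Il2rb, Il7r, Il2rg and Il2ra were lower in colon than in small intestine, and neither ligand passed the test. In whole WT tissue, 4 of 9 members passed, all lower in colon, where 27.6% of all tested genes passed. With so few members, the count is not read as a result about these 9. Il2rb ranged from 4.69 to 9.42 CPM in small intestine (median 7.28) and from 1.34 to 2.56 CPM in colon (median 1.83), 3.79-fold lower (log2 -1.92 ± 0.21, adjusted p = 4.19e-06). Il7r ranged from 4.02 to 12.3 CPM (median 8.65) and from 1.68 to 3.89 CPM (median 3.13), 2.84-fold lower (-1.51 ± 0.25, adjusted p = 0.000187). Neither gene overlapped between the organs.

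Il2rg ranged from 12.4 to 26.9 CPM (median 21.5) in small intestine and from 4.98 to 12.6 CPM (median 11.8) in colon, 2.06-fold lower (log2 -1.04 ± 0.26, adjusted p = 0.00425). Il2ra ranged from 1.54 to 8.39 CPM and from 1.80 to 2.93 CPM and was 1.9-fold lower (-0.93 ± 0.28, adjusted p = 0.0152), with overlap. Il15ra was 1.37-fold lower (-0.45 ± 0.14, adjusted p = 0.0131), under the fold threshold. All 4 calls held without any one of the 13 WT libraries.

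Il15 was at 4.66 to 15.1 CPM in small intestine (median 8.93) and 7.18 to 15.1 CPM in colon (median 8.87). Il7 was at 4.83 to 6.93 CPM (median 5.79) and 5.56 to 8.71 CPM (median 7.63), 1.26-fold higher in colon (log2 0.33 ± 0.13, adjusted p = 0.0522). The 12 T cell markers all fell, with a median log2 change of -2.9, and summed to 142 to 261 CPM in small intestine and 27.9 to 63.6 CPM in colon. Myeloid markers also fell, in 7 of 8 genes, from 286 to 649 CPM summed to 117 to 302 CPM. The part of these cells in the receptor differences was not tested.

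By Btnl2 genotype, no member passed the thresholds in any of 10 comparisons. Btnl2 itself did not pass in IEC duodenum (17.5-fold lower), IEC jejunum (6.68-fold), the 3 IEC segments together (15.9-fold) or γδ IEL ileum (60.5-fold). In those comparisons a member that did not pass cannot be called unchanged. In γδ IELs, 0 of 9 members passed in duodenum (0.00789% of all genes), jejunum (0.00794%) and ileum (0%), nor over the 3 segments together (0.0159%). In IECs, 0 of 8, 8 and 9 tested passed in duodenum (0%), jejunum (0%) and ileum (0.00774%), nor over the 3 segments (0.00802%). In whole tissue, 0 of 9 passed in small intestine (0.0202%) and colon (0.0269%). At an unadjusted p below 0.05 in edgeR, 2 members stood in γδ IEL ileum, 1 over the 3 γδ IEL segments, 1 over the 3 IEC segments and 0 in the other 7. Of 117 counts of members under other settings, 1 was above 0, with Jak3 called by limma-voom in γδ IEL ileum (log2 1.14, adjusted p = 0.0264), where that tool called 1207 genes in all and DESeq2 227.

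**Figure D4:**
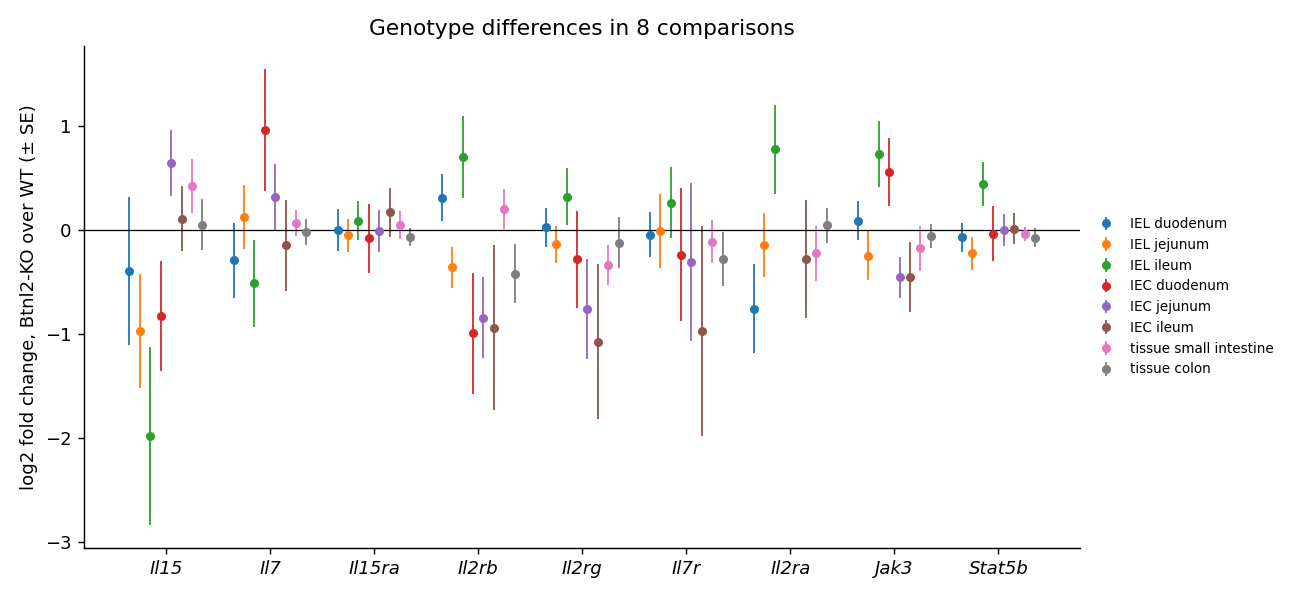
Log2 fold change of Btnl2-KO over WT with its standard error for the 9 members (x axis) in 8 comparisons (colours), from edgeR. Values lie within 1 of 0 on the log2 scale except Il15 in γδ IEL ileum (-1.98) and Il2rg in IEC ileum (-1.07).

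The changes and their errors differed by gene. Il15ra moved least, from -0.08 to 0.18 on the log2 scale over 8 comparisons, with 4 above and 4 below 0. Stat5b ran from -0.22 to 0.45. Il15 ran from -1.98 to 0.65, and the lowest value came from γδ IEL ileum, where WT libraries held 0.776, 0.960, 1.94 and 2.27 CPM and Btnl2-KO libraries 0, 0.495 and 0.571 CPM. These groups did not overlap (log2 -1.98 ± 0.85, edgeR unadjusted p = 0.0423, adjusted p = 0.551), and pan-epithelial markers summed to 3469 to 9070 CPM in the WT and 1020 to 3627 CPM in the Btnl2-KO libraries. A fit with the pan-epithelial markers as a covariate also passed 0 genes in this comparison. The part of epithelial RNA in the Il15 difference was not tested on its own. In single ileal cells Il15 gave 2 UMIs in the WT and 3 in the Btnl2-KO library.

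Jak3 in γδ IEL ileum was 1.66-fold higher in Btnl2-KO (log2 0.74 ± 0.32, unadjusted p = 0.0413, adjusted p = 0.549 in edgeR), with overlapping libraries, and in single ileal cells it stood at 164.5 (159.0 to 170.1) CPM in WT and 167 (162 to 172) in Btnl2-KO. For Il2ra, the libraries of the genotypes did not overlap in 2 segments of γδ IELs, in opposite directions, at 14 to 60 counts per library. Btnl2-KO libraries held 0.732, 0.908 and 1.46 CPM in duodenum against 1.58 to 1.90 CPM in WT, and 2.54, 2.78 and 4.44 CPM in ileum against 1.47 to 2.39 CPM in WT. Neither difference passed, at unadjusted p = 0.107 in duodenum and 0.0969 in ileum in edgeR (adjusted p = 0.997 and 0.611). How many of all genes separate in this way was not counted. The interaction had an unadjusted p of 0.0142 and an adjusted p of 0.552 in edgeR. In single cells Il2ra was at 2.00 CPM in Btnl2-KO and 1.47 in WT duodenum, and at 3.26 and 2.68 in ileum, with overlapping intervals.

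No interaction of genotype with segment passed for any member in γδ IELs (0% of genes) or IECs (0%), nor with organ in tissue (0.0193%). The lowest unadjusted p among the IEC interactions was 0.0484, for Il15, and in tissue 0.1, for Il2rb.

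Over the rest of the pathway, Il2, a further cytokine that uses the common γ chain, ranged from 0.106 to 3.12 CPM in γδ IELs, with a median of 0.672 beside 0.630 for Il15. Il4, Il9 and Il21, which use the same chain, had medians of at most 0.134 CPM in every table. Among other receptor chains, Il21r had a median of 341 CPM in γδ IELs against 1.95 CPM in IECs, and Il13ra1, a chain of the IL-13 receptor, 16.7 against 117 CPM. Of 15 target genes of STAT5, IL-15 or IL-7, 11 had a higher median in γδ IELs than in IECs. For 9, all γδ IEL libraries lay above all IEC libraries, a count without its share over all genes. Gzmb, a cytotoxic protease, had a median of 8261 CPM in γδ IELs and 28.1 CPM in IECs, and Bcl2, a survival factor, 229 against 8.99 CPM. Cish, a feedback inhibitor induced by STAT5, stood at 199 against 5.13 CPM, and Socs1, another, at 32.3 against 1.103 CPM. The medians were higher in IECs for Socs2 (28.2 in γδ IELs against 49.1 CPM), Myc (34.1 against 45.6), Bcl2l1 (21.9 against 22.4) and Socs3 (16.6 against 17.3), with overlapping libraries.

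These lists were read through the same comparisons, where 23.3% of all tested genes passed in γδ IEL jejunum against duodenum, 21.7% in ileum against jejunum and 2.16% in ileum against duodenum, and 4.42% in the last comparison of IECs. In WT γδ IELs, 3 of 7 other JAK and STAT genes rose from duodenum to jejunum and 4 of 7 fell from jejunum to ileum, Tyk2 (log2 1.03 and -0.99), Jak2 (0.71 and -0.89) and Stat6 (0.72 and -0.76) in both and Stat5a (-0.59) in the second. Among other receptor chains Il4ra rose (0.64) and fell (-0.71) likewise and Il21r rose (0.60). Of 15 target genes, 2 rose and 1 fell in jejunum against duodenum, Socs3 (1.36), Pim2 (1.2) and Ccnd2 (-0.80). Socs2 (1.19) was higher in ileum than jejunum. Of 9 tested interferon-induced genes, Isg15 fell (-0.68) in jejunum against duodenum and Ifit1 (-0.74) in ileum against jejunum, and of 8 regulators of Il15, Ifnar1 rose (0.76) in the first. In ileum against duodenum, Socs3 rose by 1.79 and Bcl2l1 fell by 0.79, and Socs3 also rose in IECs (1.73). All had adjusted p below 0.05 in edgeR.

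In colon against small intestine, where 27.6% of all tested genes passed, 6 of 14 tested target genes fell and 1 rose, with Gzmb at -5.78, Socs1 at -2.15, Pim1 at -1.84 and Socs3 at -1.49 on the log2 scale and Mcl1 at 0.78. Of 10 interferon-induced genes 8 fell, with a median of -1.11 over the list against -0.02 over all genes, among them Ifit1 (-2.1) and Usp18 (-1.82). Among receptor chains Crlf2 (-1.2) and Il4ra (-1.09) fell, and the cytokine Tslp rose (0.59). Of the 8 listed regulators of Il15, only Irf1 (-0.73) and Ticam1 (-0.63) passed, both lower, which is near the share over all genes. Il15 did not pass. No gene of any of these lists passed in a comparison of genotypes.

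Within γδ IELs, the clusters with the most Il7r and the most Il2rb were different ones. The cells were grouped into 9 clusters with the 9 members left out of the clustering, so the values are a description. In the largest cluster, 9038 cells led by Tyrobp, Spp1 and Klra5, Il7r was at 2.03 CPM and Il2rb at 884. In the 7382 cells of the cluster led by Scin and Gzmk, with Il7r itself its next gene, Il7r was at 78.4 and Il2rb at 213. Another, of 3474 cells led by Tgm2 with Tcf7 and Id3 among its leading genes, held Il7r at 58.4 and Il2rb at 112.

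**Figure D5:**
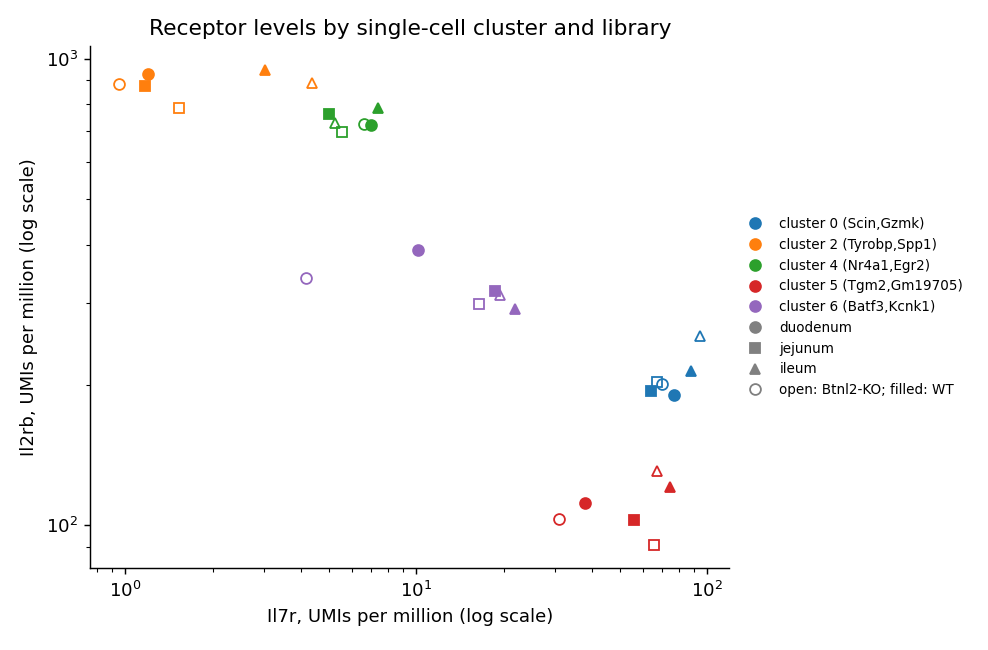
Il7r (x axis) against Il2rb (y axis), both in CPM on log axes, for the 5 clusters with over 600 cells (colours) in each of the 6 libraries (shape for segment, filled for WT, open for Btnl2-KO). The Scin and Tgm2 clusters lie at high Il7r and low Il2rb and the Tyrobp cluster at the reverse, in each of the 6 libraries.

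This held in each library. In the Tyrobp cluster Il7r stayed between 0.954 and 4.39 and Il2rb between 787 and 949 CPM, and in the Scin cluster between 64.2 and 94.5 and between 190 and 255. The 659 cells led by Nr4a1 and Egr2 held Il7r at 6.08 and Il2rb at 739, and the 2241 cells led by Batf3 and Kcnk1 held 15.3 and 325. Cells with an Il7r UMI made up 22.9% of the Scin cluster and 0.83% of the Tyrobp cluster, at median depths of 4852 and 5218 UMIs per cell. They made up 4.17% of the 144 cells led by α-defensin genes, at a median of 3741, but 45.8% of these cells also held an Il2rb UMI and 41.7% an Il2rg UMI, so that cluster gives no background share. After each cell was thinned to 1500 UMIs, Il7r was found in 1.004 to 3.68% of cells with an Il2rb UMI and in 4.82 to 7.44% of cells without one, over the 6 libraries.

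Il2rg, Jak3 and Il15ra differed less between these clusters, and Il2ra differed widely at a low level. Il2rg lay between 446 and 650 CPM in the 5 clusters of over 600 cells and Jak3 between 115 and 173. Il15ra lay between 18.6 and 25.1. Il2ra was highest of these 5 in the Tgm2 cluster, at 9.28 CPM against 0.12 in the Tyrobp cluster. The 188 cells led by interferon-induced genes such as Ifit1 and Isg15 held the highest Il15ra value of the 9 clusters, 34.0 CPM (23.6 to 47.5), and Il7r at 55.1. That Il15ra value rests on 34 UMIs, and its interval overlaps that of the Scin cluster, 25.1 CPM (23.5 to 26.8).

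Genes whose level followed the members most closely across libraries are given as a description, since libraries of a table share segment, depth and carried-over RNA. Over the 16 IEC libraries and 11091 genes, Il7 was most like 6430548M08Rik (Pearson r = 0.95), Slitrk6 (0.95) and Fam102b (0.95), and Il15 most like Ndufv2 (0.93), Ndufb11 (0.90) and Nudt7 (0.895). Il15ra was most like Arid3b (0.765). Over the 22 γδ IEL libraries and 10625 genes, Jak3 was most like Esyt1 (0.98), Stat5b like Foxred2 (0.97), Il2rg like Tapbp (0.95), Il2rb like Itih5 (0.91), Il2ra like Gpr132 (0.84) and Il7r like Rora (0.83). Itih5 was also among the leading genes of the Tyrobp cluster of single cells.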

How the data were processed

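Per the labels and the study's methods, the authors used ArrayStudio to map bulk reads to a mouse genome they had customized (the labels name GRCm38), estimated sense-strand exon reads with RSEM, and deposited expected counts, not normalized. The labels name the KAPA stranded kit and the methods other kits, and which was used where is not settled. The study's methods also give another age for the sorted cells than the labels. For single cells the authors ran Cell Ranger and deposited a matrix of UMI counts for each library.

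Expected counts were rounded. Of 24475 identifiers, 24375 matched a symbol, and the other 100 held 0.253 to 9.24% of counts and stayed in tests and library sizes. In the γδ IEL table, 1 column matched no label and was not used. The test was edgeR 4.0.16 (quasi-likelihood, TMM), fitted to the 2 groups compared. A gene was tested if the number of libraries with 10 counts or more was at least the size of the smaller group, and it passed at a Benjamini-Hochberg adjusted p below 0.05 and a fold above 1.5. Alternatives used limma 3.58.1 and DESeq2 1.42.0. The edgeR, DESeq2 and limma fits were tested on simulated data. Replicates are separate libraries, and the labels do not tie segments to mice, so that libraries of 1 mouse may enter different segments and p-values measure the spread between libraries.

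Cells needed 500 genes and at most 10% mitochondrial UMIs, no doublet caller was run, and clusters came from scanpy 1.11.5 (2000 variable genes, 20 components, resolution 0.5). No cluster was given a cell type name. The members and gene lists were chosen with earlier results of these data known. Named genes are the 9 members, Btnl2 and the genes most like each member by Pearson r of log2(CPM + 1). Added to these are up to 4 called genes of each pathway list in a comparison (all where few were called). Mcl1 was named beyond that limit, as the target gene that rose in colon. Some marker genes of other cells are also named. The other pathway genes whose fraction levels are given were chosen after their values were seen. Interval bounds are at 95%.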

Additional observations from a re-analysis of the deposited data

Results flagged for a closer look

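Of 72 groups of 4 to 7 bulk libraries in which a member's highest and lowest value were compared with the rest by Dixon's ratio, 4 held a library past the 95% limit, and chance gives about 1 in 20. Il15 stood at 3.46 CPM in WT γδ IEL duodenal library 1105579, against 0.478 to 0.690 CPM in the 3 others. Il7 stood at 3.505 CPM in library 1105580 of the same group, against 2.05 to 2.21 CPM. In Btnl2-KO colon, library 964926 held 19.2 CPM of Il15, against 5.99 to 10.9 CPM in the 6 others, and 23.7 CPM of Stat5b, against 32.3 to 36.1 CPM.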

How the results depend on the processing

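Of 238 counts of called members recomputed under other settings, 217 stayed within 1.5 times the main count, and 1 of 117 counts by genotype was above 0, limma-voom in γδ IEL ileum (1). Of 2070 log2 changes of single members, 2018 kept their call, 35 lost it, 17 gained one and 0 called values changed sign, and 129 of 1851 values called in neither setting had the other sign. In WT IEC ileum against duodenum (1 in the main analysis), the count was 0 with all IEC libraries in 1 fit, 0 with the T cell covariate added, 0 with both genotypes, 2 with both genotypes without libraries 1003459, 1003474 and 1003481, 3 with limma-voom, and 0 to 2 with 1 library left out. In WT IEC jejunum against duodenum (0) it was 1 with both genotypes without libraries 1003459 and 1003474 and 1 without 1003481 as well, and in ileum against jejunum (0) it was then also 1. In WT γδ IEL ileum against jejunum (3) it was 0 with the pan-epithelial covariate, 0 with both genotypes, and 0 to 3 with 1 library left out. In jejunum against duodenum (3) it was 1 with that covariate and 1 to 4 with 1 library left out. The cause was not tested. In single cells, median Il15 moved from 0.103 to 0.239 CPM over all barcodes and to 0 in cells without a pan-epithelial UMI, where Il2ra moved from 2.33 to 2.98 and Il2rb from 478 to 393.

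Counts over all genes moved more. In WT IEC ileum against duodenum, 565 genes passed, 1050 with DESeq2, 1755 with limma-voom and 0 with all IEC libraries in 1 fit or with both genotypes. With both genotypes and without the 3 libraries, 1073 were higher and 836 lower. In WT γδ IEL ileum against jejunum, 2748 passed, 1440 with all γδ IEL libraries and 30 with both genotypes. By genotype in γδ IEL ileum, 0 passed, 227 with DESeq2 and 1207 with limma-voom. In small intestine 3 passed, 181 with DESeq2 and 220 with all tissue libraries.

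The fits of both genotypes without 2 or 3 of their libraries, the other settings of the interactions and the tissue libraries left out in turn were chosen after seeing the data. No paired analysis was possible because each library carries its own number and groups share none. Depth limits Il15, with 0 to 51 counts in γδ IEL libraries, and Il2ra in IECs, with 2 to 14.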
